A study of Homo sapiens with 80 samples.

Results

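High purity cardiomyocyte wells of WTC11, a human induced pluripotent stem cell line, were compared between day 8 and day 16 of a directed differentiation. These were 6 of the 80 libraries of the series, wells 1, 2 and 4 of day 8 and wells 1, 2 and 3 of day 16. They are all the wells labelled high purity WTC11 on these days. The comparison itself was chosen with earlier results of these data known. All 6, and the single day 10 well and both day 13 wells of the same course, came from 1 differentiation begun at passage 52. CHIR99021, an activator of WNT signalling, was given on day 0 and IWP2, an inhibitor of WNT secretion, on day 2, and medium with insulin was used from day 6 on. The purity class rests on day 16 flow cytometry, in which cells positive for cardiac troponin T were counted. The low purity wells set beside them (4 of day 8 and 3 of day 16) were also WTC11 on the same schedule, but came from 1 differentiation begun at passage 69. The purity class is therefore bound to the passage and to the differentiation, these cannot be told apart, and the wells measure the spread within a differentiation, not between differentiations. Bulk RNA of whole wells was measured, so fewer cells of a type and less RNA per cell cannot be told apart.

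By day 8 of such a protocol cells have taken the cardiac fate, and the week that follows is the start of maturation. Young cardiomyocytes rely on alpha myosin heavy chain in culture, carry slow skeletal troponin I and atrial light chains, still divide, and live largely on glucose. Maturing ventricular cells gain beta myosin and the ventricular light chain, build up the sarcoplasmic reticulum and its channels, turn to fatty acids and leave the cell cycle. Cells of other lineages can form in the same well and add their own RNA.

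Expression was measured as TPM (a level per gene length, set to a fixed sum in each library), from 11399154 to 18250298 reads a well. A single mitochondrial ribosomal RNA, RNR2, took 17%, 17.2% and 24.7% of the TPM in the day 8 wells and 30.8%, 26% and 33.2% in the day 16 wells, with no overlap (exact permutation test, two-sided, p = 0.1, the smallest that 3 wells against 3 allow). Each library was scaled by TMM, which sets the bulk of genes level, before log2(TPM + 1) was taken, and log2 fold changes are on that scale, which understates the change of low genes. TPM values given per well or as a mean are unscaled. All 14 cardiomyocyte defining genes passed the filter, and their summed TPM was between 13080 and 15420 on day 8 and between 14330 and 16260 on day 16. In between, the sum was 13070 in the day 10 well and between 11470 and 11720 in the day 13 wells.

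Of 17999 genes at 1 TPM or more in at least 3 of the 6 wells, 2698 (15%) changed by at least 2-fold between the days with a limma adjusted p under 0.05. Of the genes tested 1415 (7.86%) rose and 1283 (7.13%) fell, and the median log2 fold change was 0.01. The split moved with the scaling. With no scaling factor the median was -0.17, and 952 genes rose and 1733 fell. With mitochondrial RNA, RN7SK and RN7SL taken out of the TPM sum the median was 0.11, and 2015 rose and 1288 fell. The wells of the days did not overlap for 2585 of the 2698 genes, against 52.2% of all genes tested. The calls were made on the same 6 wells, so this separation follows largely from the calling and adds no weight to it.

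**Figure D1:**
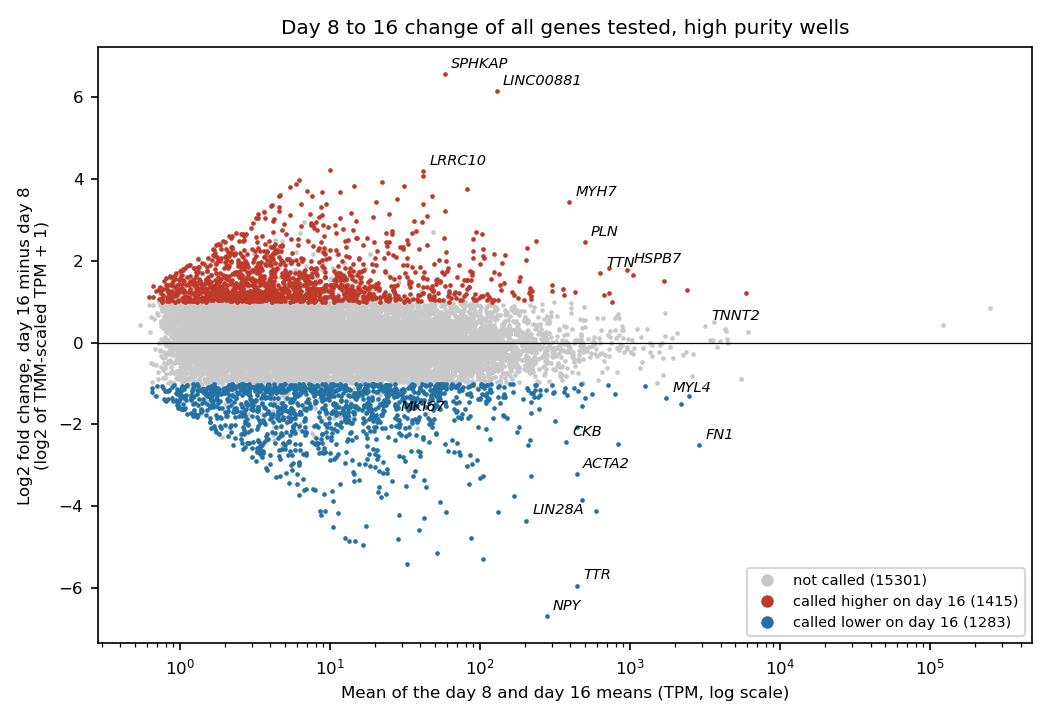
Log2 fold change from day 8 to day 16 (y axis) against mean TPM (x axis, log scale) for all 17999 genes tested in the high purity wells; red genes were called higher (1415), blue lower (1283) and grey not called (15301). SPHKAP and LINC00881 stand at the top, NPY and TTR at the bottom, and TNNT2 lies near 0 at the right.

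The largest rise was in SPHKAP, an anchoring protein for protein kinase A. It stood at 0.613, 0.431 and 0.394 TPM in the day 8 wells and at 102, 133 and 115 TPM in the day 16 wells, a log2 fold change of 6.56 ± 0.16 (SE; limma adjusted p = 6.58e-32). LINC00881, a long noncoding RNA, went from 3.22, 2.71 and 3.71 TPM to 260.5, 287 and 217 TPM (6.14 ± 0.39). LRRC10, a leucine-rich repeat protein of heart muscle, went from 4.4, 3.3 and 4.58 TPM to 73, 87.3 and 77.2 TPM (4.20 ± 0.19). In all 3 genes every day 16 well lay above every day 8 well. The next largest rises among genes at 20 TPM or more were in PLCXD3 (4.08), the water channel AQP1 (3.82), the small heat shock protein HSPB3 (3.74), the antisense RNA MLIP-AS1 (3.67), PRSS35 (3.50) and GPRIN3 (3.45). A further 3 short RNAs met the same rule, SNORD115-45 (3.93), SNORD115-25 (3.83) and MIR8053 (3.59). Each had 0 reads in a day 8 well and at most 34 reads in any of the 6 wells, and both SNORD115 genes lost their call with DESeq2 on recovered reads. Their values rest on single day 8 wells: SNORD115-45 was at 3.15, 3.14 and 5.44 without day 8 well 1, 2 and 4, SNORD115-25 at 4.90 without day 8 well 4, and MIR8053 at 2.07 and 4.64 without day 8 well 1 and 2.

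**Figure D2:**
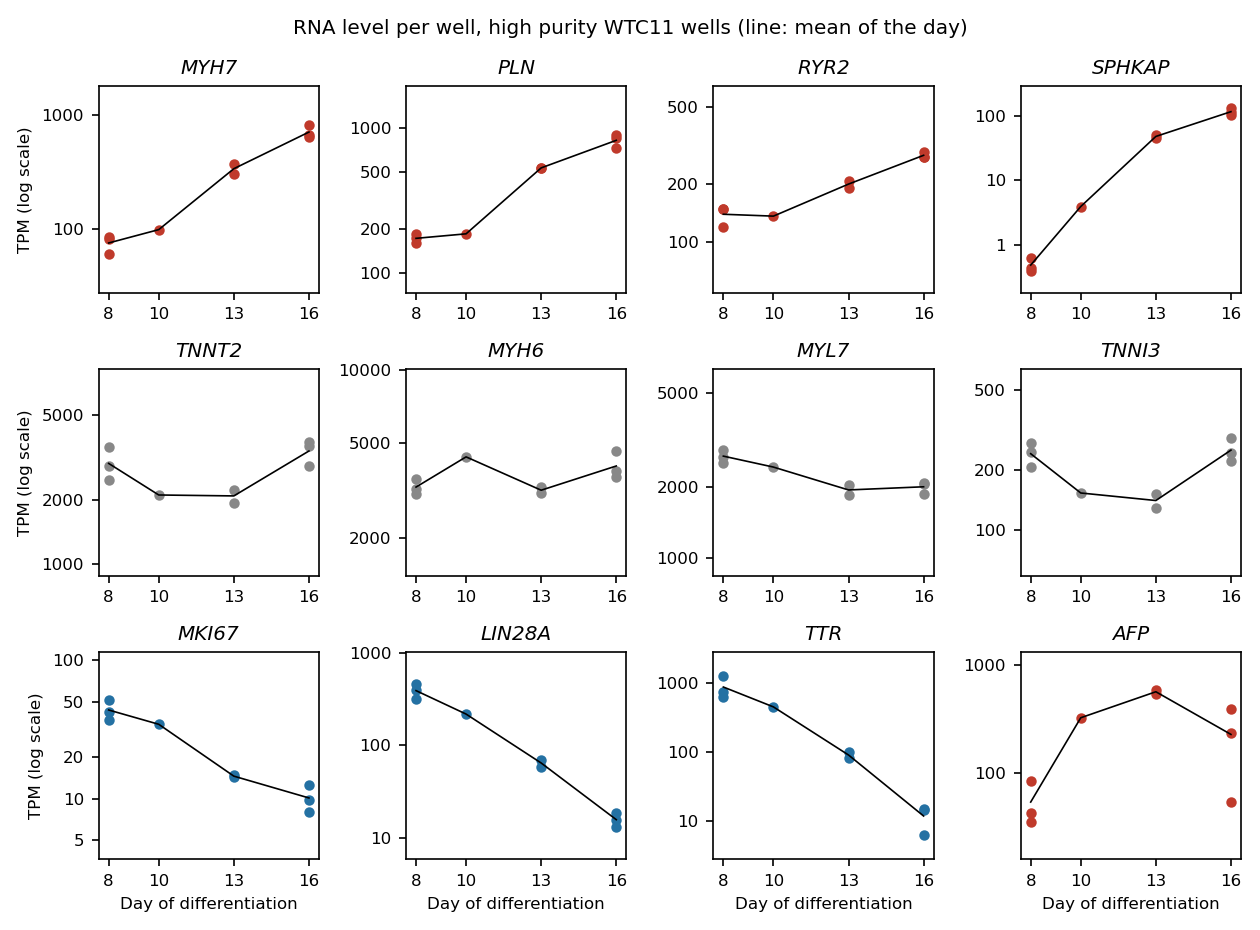
TPM (log axis) in each high purity well on days 8, 10, 13 and 16 for 12 genes; points are wells, lines join the means of the days, red genes were called higher on day 16, blue lower and grey not called. MYH7, PLN, RYR2 and SPHKAP climb, TNNT2, MYH6, MYL7 and TNNI3 end near where they began, MKI67, LIN28A and TTR descend, and AFP is highest on day 13.

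Among thick filament and titin genes 5 of 11 tested members rose and 1 fell, with a median log2 fold change of 0.97 against 0.01 over all genes. Of all genes tested 7.86% rose and 7.13% fell, the shares to set beside the counts of this list and those below. MYH7, the slow beta myosin heavy chain, stood at 61.1, 81.4 and 84.8 TPM on day 8 and at 646, 820.5 and 669 TPM on day 16, a change of 3.43 ± 0.30 (limma adjusted p = 2.82e-13). MYH6, the fast alpha chain, stood at 3056, 3534 and 3186 TPM and at 4595, 3798 and 3580 TPM, a difference of 0.49 that did not pass (95% interval -0.08 to 1.07). MYH6 thus remained the more abundant of the 2 in every well. They are near-identical neighbours, and reads of one could have been counted for the other. MYH7B, a related slow myosin, rose from 3.97 ± 1.12 to 34.7 ± 3.46 TPM (SD, n = 3 wells each), and titin (TTN), the elastic spring of the sarcomere, from 329 ± 38.8 to 925 ± 75.6 TPM (log2 3.08 and 1.70).

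The ventricular light chain MYL2 went from a trace (0.306, 0 and 0.745 TPM, at most 4 reads a well) to 7.15, 9.27 and 8.01 TPM, a log2 change of 3.01 ± 0.34. Its atrial counterpart MYL7 stayed far above it, at 2705 ± 172 TPM on day 8 and 2003 ± 120.5 TPM on day 16 (-0.23, 95% interval -0.73 to 0.28, not called). MYL4, the light chain of atrial and embryonic heart, was the member that fell, from 2320, 2872 and 2576 TPM to 868, 896 and 849.8 TPM (-1.36 ± 0.22).

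The thin filament had 1 called member of 12, the capping protein TMOD1 (1.05; not called without scaling, nor without day 8 well 1 or day 16 well 1). This count is near the 7.86% of all genes tested that were called higher. The median of the list, 0.17, turned to -0.03 without scaling. At an unadjusted limma p under 0.05, 2 members were higher and 4 lower. Cardiac troponin T (TNNT2), by whose protein purity was scored, stood at 2474, 2874 and 3507 TPM on day 8 and at 3702, 3555 and 2867 TPM on day 16. Its wells overlapped, and its change of 0.41 (95% interval -0.23 to 1.04) did not pass. Troponin I was likewise not called in its cardiac form TNNI3 (241 ± 33.1 and 251 ± 35.6 TPM; 0.27) or its slow skeletal form TNNI1 (709.5 ± 86.2 and 748 ± 71.4 TPM; 0.29). The cardiac actin ACTC1 was at 3473 ± 254 and 1712 ± 60.5 TPM, a log2 difference of -0.81 under the fold threshold, and without scaling it was called lower (-1.02; limma adjusted p = 2.49e-06).

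Z disc and costamere genes, which anchor the filaments, had 8 of 24 tested members higher (median 0.89) and 0 lower by limma, edgeR or DESeq2, with 1 lower at an unadjusted p under 0.05. TRIM63, a ubiquitin ligase of the sarcomere, rose from 23.1, 21.1 and 24.3 TPM to 101, 94.3 and 91 TPM (2.23 ± 0.24). FHL2 (1.92), the chaperone HSPB7 (1.79; 478 ± 65.7 to 1427 ± 158 TPM) and SYNPO2 (1.76) had the next largest rises. ANKRD1, a stretch-responsive member, was at 1070 ± 113 TPM on day 8 and 568 ± 101 TPM on day 16 (-0.71, under the fold threshold). Of 15 skeletal muscle genes 6 passed the filter, and the embryonic myosin MYH3 (1.07, under 3 TPM in every well) was called, a call lost without scaling and without day 8 well 2 or day 16 well 2.

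Upstream sequences of 3 rising genes are shown for the muscle motifs in them. Those of SPHKAP and LRRC10, among the largest rises, and of TNNT2, which was not called, were also read and are not printed. SPHKAP held no match to any motif listed below, and LRRC10 held 1 CCAAT and no muscle motif. TNNT2 held 1 AGATAA and 1 CATTCC, so such matches were not confined to rising genes. A site of MEF2, a transcription factor family of muscle, was found on either strand in 3.3% of 788 rising genes with a RefSeq promoter, against 1.29% of 852 falling genes, 1.22% of 12086 promoters of genes tested and 1.79% of 27305 promoters in all. AGATAA, a motif of GATA factors, was in 9.26% of rising and 8.22% of falling promoters, in 5.85% of those tested and in 9.37% of all. CATTCC, a motif of TEAD factors, was in 11%, 10.4%, 9.84% and 11.9% of these sets. TATAAA, the TATA motif, was in 13.1%, 8.45%, 6.29% and 11.1% of them. A MEF2 site can hold TATAAA, and the MEF2 shares were not separated from those of TATAAA. These shares were not tested, and a match is a description of letters, not of a bound site. The 250 bases before the start site are given 5′ to 3′ from RefSeq GRCh38.p14; capitals mark MEF2 sites, CArG boxes, AGATAA as the GATA motif, CATTCC as the TEAD motif, the TATA motif TATAAA (which a MEF2 site can overlap), the box CCAAT and the cell cycle motif TTTGAA, each on either strand.
HSPB3: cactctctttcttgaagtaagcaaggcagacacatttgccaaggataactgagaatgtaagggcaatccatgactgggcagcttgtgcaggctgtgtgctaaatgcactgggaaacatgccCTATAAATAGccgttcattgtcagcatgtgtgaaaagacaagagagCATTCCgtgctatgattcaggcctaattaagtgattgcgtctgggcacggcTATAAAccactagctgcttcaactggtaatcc
TTN: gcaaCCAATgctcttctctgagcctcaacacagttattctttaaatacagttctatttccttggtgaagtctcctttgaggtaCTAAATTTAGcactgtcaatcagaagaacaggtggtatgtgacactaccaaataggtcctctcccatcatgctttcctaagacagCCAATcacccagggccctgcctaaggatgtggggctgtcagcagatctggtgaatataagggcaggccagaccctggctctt
PLN: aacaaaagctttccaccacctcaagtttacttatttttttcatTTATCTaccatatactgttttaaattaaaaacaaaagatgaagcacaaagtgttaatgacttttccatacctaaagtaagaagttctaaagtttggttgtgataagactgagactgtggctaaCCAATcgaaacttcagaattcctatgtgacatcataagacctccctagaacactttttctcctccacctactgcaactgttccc
The HSPB3 stretch lies at chr5:54455449-54455698 (plus strand), that of TTN at chr2:178807424-178807673 (minus strand) and that of PLN at chr6:118548046-118548295 (plus strand). HSPB3 and TTN each held 1 MEF2 site and PLN held 0, and PLN held 1 AGATAA.

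Calcium handling genes had 9 of 27 tested members higher (median 0.65; 6 higher without scaling) and 0 lower by limma, edgeR or DESeq2, with 2 lower at an unadjusted p under 0.05. Phospholamban (PLN), the brake on the calcium pump of the sarcoplasmic reticulum, rose from 160.1, 185 and 173 TPM to 726, 855 and 889 TPM (2.45 ± 0.26; limma adjusted p = 7.70e-11). RYR2, the channel that releases that store, rose from 120.5, 149 and 149 TPM to 278, 293 and 276 TPM (1.22 ± 0.15). Both genes were higher in every day 16 well than in any day 8 well. The pump itself, ATP2A2, was at 264 ± 16.6 TPM on day 8 and 268 ± 8.61 TPM on day 16 (0.23, not called). The sodium-calcium exchanger SLC8A1 (0.56) lay under the fold threshold. The pore subunits of L-type (CACNA1C, 1.32) and T-type (CACNA1G, 1.39) calcium channels rose.

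Ion channels and pumps had 7 of 21 tested members higher (median 0.92; 5 without scaling, and 11 with edgeR or DESeq2) and 0 lower by any of the tools, with 1 lower at an unadjusted p under 0.05. The pump regulator FXYD1 rose from 9.3, 7.35 and 7.66 TPM to 34.2, 31.3 and 29.9 TPM (2.06 ± 0.29), and the inward rectifier KCNJ4 rose by 1.73. KCNIP2, a subunit of the transient outward current, rose by 1.04 and lost its call without scaling and without day 8 well 1 or day 16 well 1. The pacemaker channel HCN4 was at 55.4, 61.2 and 57.4 TPM on day 8 and 97.9, 101 and 101 TPM on day 16, without overlap, and at 0.98 ± 0.16 lay just under the fold threshold; with edgeR (1.01) and DESeq2 (1.02) it was called. KCNJ2, the inward rectifier of resting adult cells, did not pass the filter.

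Intercalated disc genes, which join cardiomyocytes end to end, had 1 called member of 16 (median 0.03, and -0.18 without scaling). That member was the connexin GJA3, which went from 8.53, 10.9 and 12.3 TPM to 60.3, 65.9 and 67.9 TPM (2.72 ± 0.22). The ventricular connexin GJA1 was at 156 ± 38.9 TPM on day 8 and 106 ± 16.7 TPM on day 16 (-0.33, not called). The desmosomal genes DSP (0.07) and PKP2 (0.19) and the cadherin CDH2 (0.60) were not called, and the first 2 were below 0 without scaling.

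Cardiac transcription factors split: 7 of 33 tested rose and 6 fell (median 0.04), and without scaling 5 rose and 9 fell (median -0.17). HEY2, a factor of compact ventricular muscle, rose from 28.4, 28.2 and 29.8 TPM to 135, 164 and 150 TPM (2.54 ± 0.13). The ventricular factor IRX4 rose by 1.69, and TBX5 by 1.08, the latter call being lost without scaling and without day 8 well 1. TBX3, a factor of the conduction system, fell from 203, 151 and 127 TPM to 12.8, 22.9 and 15.7 TPM (-2.97 ± 0.18). ISL1 (-1.79), a factor of heart progenitors, and NR2F2 (-1.76), an atrial and venous factor, fell as well. NKX2-5, the core cardiac homeobox factor, was at 113 ± 11.9 and 99.9 ± 2.88 TPM, a change of 0.04 (95% interval -0.55 to 0.63) whose sign turned without scaling.

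Of hormones and receptors 3 of 15 tested rose and 4 fell, 2 of the falls being left without day 16 well 3; without scaling 0 rose and 4 fell. CORIN, the protease that activates natriuretic peptides, rose from 71.1 ± 7.31 to 137 ± 9.55 TPM (1.15; not called without scaling or with a pseudocount of 0.1). NPR1 (-1.28), a natriuretic peptide receptor, and DIO3 (-1.47), which inactivates thyroid hormone, fell from under 6 TPM. The peptide NPPB was at 44.2 ± 15.5 and 58.5 ± 18.8 TPM and was not called.

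**Figure D3:**
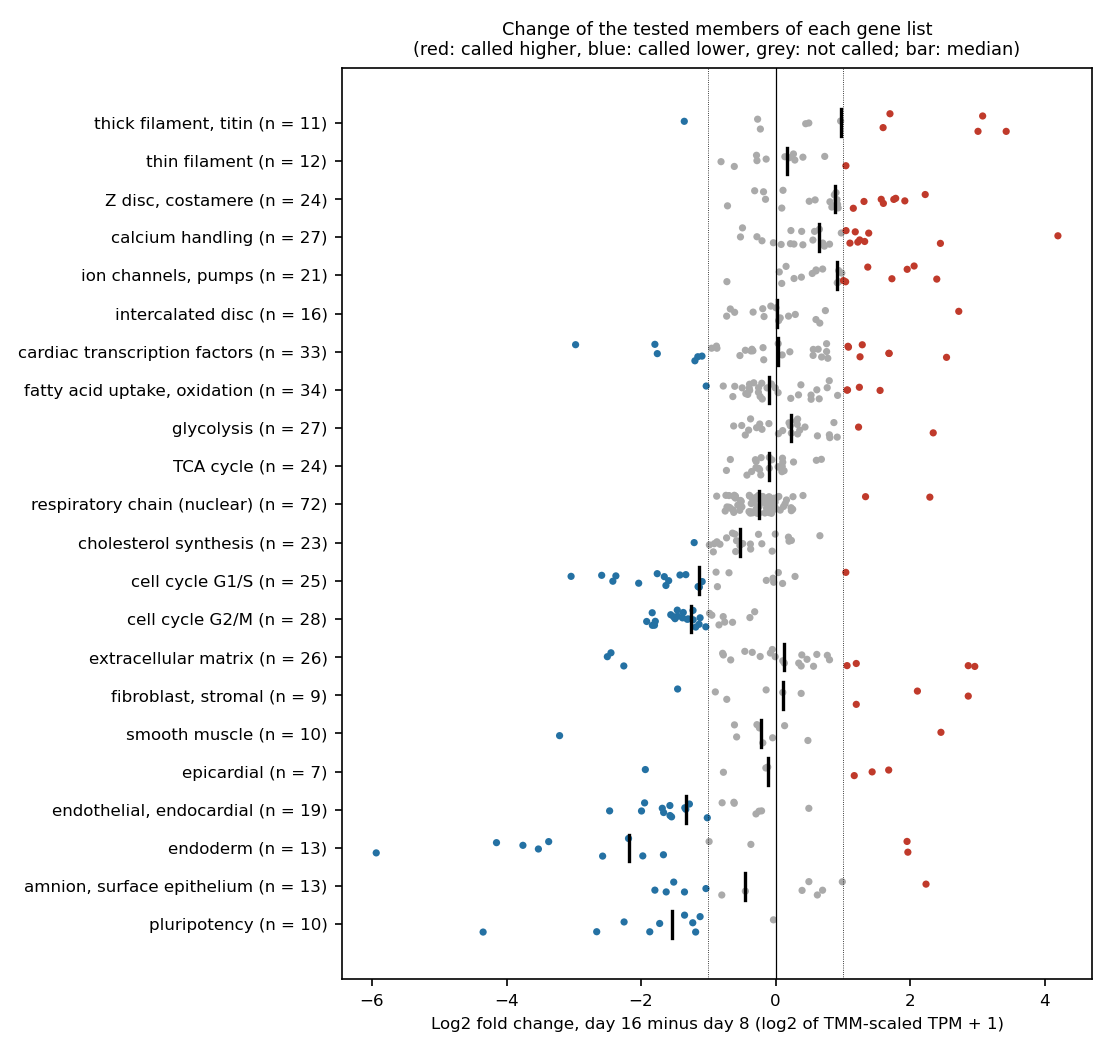
Log2 fold change from day 8 to day 16 (x axis) of every tested member of the gene lists (y axis); red members were called higher, blue lower and grey not called, and bars are medians. Thick filament, Z disc, calcium and channel lists lie mostly right of 0, and the thin filament list lies on both sides of it. Energy lists lie near 0, and cell cycle, endothelial, endoderm and pluripotency lists mostly left.

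Medians of the energy metabolism lists lay between -0.25 and 0.37. Of 72 tested nuclear genes of the respiratory chain 59 had a negative and 13 a positive log2 fold change (median -0.25, and -0.43 without scaling). Of these genes 2 rose, and 0 fell by limma, edgeR or DESeq2. At an unadjusted limma p under 0.05, 6 were higher and 31 lower. The 2 that rose are muscle isoforms of cytochrome c oxidase. COX6A2 went from 4.79, 13.2 and 18.3 TPM to 63.8, 42.8 and 42.1 TPM (2.29 ± 0.58) on 7 to 108 reads a well, and was not called with DESeq2 or a pseudocount of 0.1. COX7A1 went from 0.748, 1.89 and 3.64 TPM to 3.88, 5.28 and 7.52 TPM (1.34 ± 0.47) on 1 to 15 reads, and lost its call without day 8 well 1 or day 16 well 3. ATP5F1B, of the ATP synthase, was at 898 ± 169 TPM on day 8 and 499 ± 16.9 TPM on day 16 (-0.62, under the fold threshold). Of 24 TCA cycle genes 0 were called by limma, edgeR or DESeq2, while 3 were higher and 9 lower at an unadjusted p under 0.05 (median -0.09). Messenger RNAs of the mitochondrial genome were not analysed here.

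In fatty acid uptake and oxidation 4 of 34 tested members rose and 1 fell (median -0.09), and 2 rose without scaling. Of all genes tested 7.86% rose and 7.13% fell. The transporter SLC27A6 rose from 14.5 ± 0.302 to 39.1 ± 7.86 TPM (1.55), and ACACB, whose product inhibits mitochondrial fatty acid entry, rose by 1.25. The fatty acid transporter CD36 went from 1.00, 1.06 and 0.873 TPM to 1.84, 3.25 and 3.09 TPM (1.06), a call lost without scaling and without day 16 well 2 or 3. The lipid droplet protein PLIN2 (1.07) lost its call without scaling and without day 8 well 1 or day 16 well 1. The fatty acid binding protein FABP3 (71.9 ± 1.2 and 119 ± 7.17 TPM; 0.92) lay under the fold threshold, the oxidation enzyme HADHA was at -0.13, and CPT1B did not pass the filter.

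Among mitochondrial regulators 3 of 19 rose: the retinoid receptor RXRG (1.60), the coactivator PPARGC1B (1.25) and ESRRB (1.02, not called without scaling, with the wells of the contrast alone, or without well 2 of either day). The better known coactivator PPARGC1A was at 36.5 ± 2.67 and 39.6 ± 1.1 TPM (0.32, not called).

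Glycolysis had 2 of 27 members higher (median 0.24), near the 7.86% of all genes tested that were called higher. SLC2A4, the insulin-responsive glucose transporter of muscle, rose from 9.53, 12.2 and 10.7 TPM to 46.8, 56.6 and 49.1 TPM (2.34 ± 0.29), and the enolase ENO2 rose by 1.23. The widely expressed transporter SLC2A1 remained the more abundant (164 ± 25 and 268 ± 11.7 TPM; 0.92, under the fold threshold). LDHA (0.31) and GAPDH (0.33) were not called. Of genes for phosphocreatine and oxygen handling, myoglobin (MB) rose from 63.2, 63.2 and 71.2 TPM to 178, 185 and 149 TPM (1.56 ± 0.38), a call lost with a pseudocount of 0.1. The brain-type creatine kinase CKB fell from 743, 721 and 474 TPM to 79.3, 119 and 109 TPM (-2.43 ± 0.16), and the muscle-type CKM was at 0.43 (95% interval -0.37 to 1.22). Cholesterol synthesis had 1 of 23 members lower, MVK (-1.21), with a median of -0.53; without scaling 6 were lower.

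Isoform pairs were compared as TPM ratios within a well, which do not depend on the scaling. Of 12 pairs 10 had both genes above 0 in all 6 wells, and in 7 of these the days did not overlap, each at the smallest p that 3 wells against 3 allow (exact permutation test, two-sided, p = 0.1, adjusted p = 0.143). MYH7 to MYH6 was 0.0200, 0.0231 and 0.0266 on day 8 and 0.141, 0.216 and 0.187 on day 16, a 7.73-fold increase of the geometric mean. CKM to CKB went from 0.279, 0.358 and 0.434 to 3.67, 1.8 and 2.55, so that the muscle form became the more abundant. COX6A2 to COX6A1 increased 7.57-fold and COX7A1 to COX7A2 6.01-fold, and in both pairs the muscle form stayed the minor one. The log2 change of the latter ratio was 2.59, and 1.98 without day 8 well 1, which held 1 read of COX7A1. TNNT2 to TNNT1 (2.05-fold) and ACTA1 to ACTC1 (2.03-fold) increased too, and PFKM to PFKP was 1.4-fold lower. The ratio of ACTA1 to ACTC1 was 0.0454 and 0.0443 on day 13, above its 0.0235, 0.0243 and 0.0254 on day 16. ACTC1, its denominator, was itself lower on day 16 than on day 8 (log2 fold change -0.81, under the fold threshold). TNNI3 to TNNI1, a switch known from the maturing heart, was 0.332, 0.343 and 0.342 on day 8 and 0.392, 0.293 and 0.324 on day 16 (exact permutation p = 0.9).

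**Figure D4:**
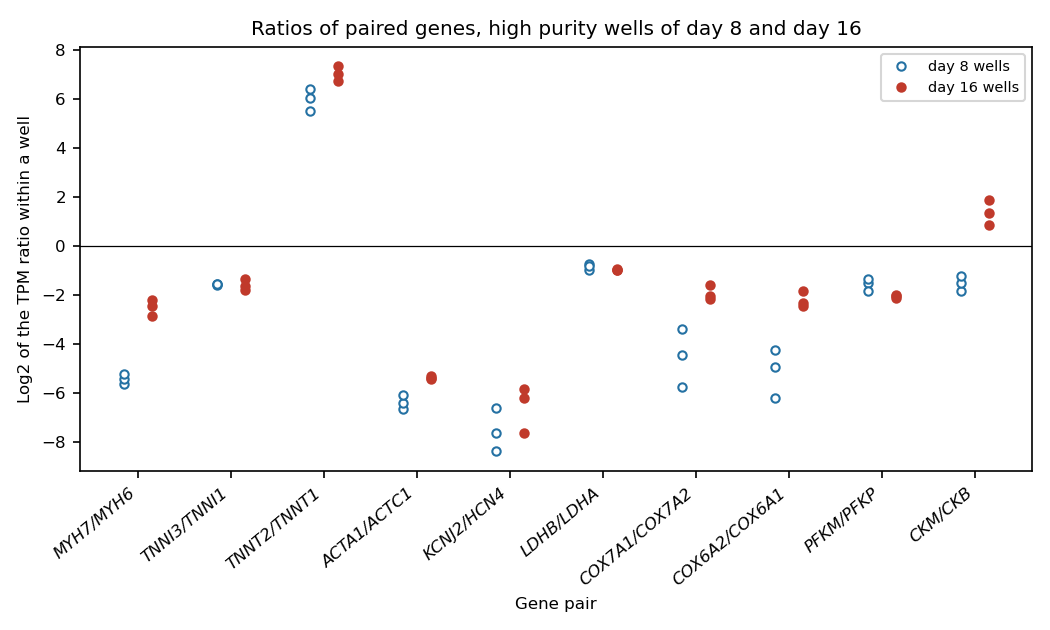
Log2 of the TPM ratio within a well (y axis) for the 10 gene pairs compared (x axis); open circles are the 3 day 8 wells and filled circles the 3 day 16 wells. MYH7/MYH6, COX7A1/COX7A2, COX6A2/COX6A1 and CKM/CKB shift upward without overlap, while TNNI3/TNNI1 and LDHB/LDHA overlap.

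Cell cycle genes were lower on day 16. Of 28 genes of G2 and mitosis 20 fell (median -1.26) and 0 rose by limma, edgeR or DESeq2, nor was any higher at an unadjusted p under 0.05. Of 25 tested genes of G1 and S phase 15 fell and 1 rose (median -1.14). MKI67, a marker of cycling cells, went from 51.8, 42.5 and 36.8 TPM to 8.03, 12.5 and 9.78 TPM (-1.83 ± 0.10; limma adjusted p = 5.78e-20), and the topoisomerase TOP2A from 153, 124 and 109.9 TPM to 30.5, 52.7 and 38.8 TPM (-1.46 ± 0.09). Every day 16 well lay below every day 8 well in both, and both were still measured on day 16. The mitotic genes BIRC5 (-1.92), AURKB (-1.83) and KIF11 (-1.80) fell as well. In G1 and S the largest falls were in MYBL2 (-3.04), which activates cell cycle genes, UHRF1 (-2.58), RRM2 (-2.42) and the replication factor CDC45 (-2.37). Cyclin D2 (CCND2) was the member that rose, from 152, 143 and 124 TPM to 225, 274 and 251 TPM (1.04 ± 0.08; not called without scaling). Of 13 tested inhibitors of the cycle 1, CDKN2B (1.52), rose, and CDKN1A was at 0.77, under the fold threshold.

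Promoters of the G2 and mitosis genes are shown because they share letters that their choice did not use. Of 21 with a RefSeq promoter 85.7% held CCAAT on either strand in the 250 bases before the start, against 34.3% of 12086 promoters of genes tested and 33% of 27305 in all. TTTGAA, a core sequence of the cell cycle homology element, was in 61.9% of them, against 9.08% of those tested and 13.6% in all. Of 19 promoters of G1 and S genes 52.6% held CCAAT and 0 held TTTGAA. These shares were not tested either. TOP2A and the cyclins CCNB2 (log2 fold change -1.04) and CCNB1 (-1.56), both chosen after their values were seen, serve as examples with and without TTTGAA, with the same motifs in capitals.
TOP2A: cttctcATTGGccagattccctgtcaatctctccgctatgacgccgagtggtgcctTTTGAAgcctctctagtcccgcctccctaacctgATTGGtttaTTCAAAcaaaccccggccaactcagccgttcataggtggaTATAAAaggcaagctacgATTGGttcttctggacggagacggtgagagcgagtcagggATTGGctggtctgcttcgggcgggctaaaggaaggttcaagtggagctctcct
CCNB2: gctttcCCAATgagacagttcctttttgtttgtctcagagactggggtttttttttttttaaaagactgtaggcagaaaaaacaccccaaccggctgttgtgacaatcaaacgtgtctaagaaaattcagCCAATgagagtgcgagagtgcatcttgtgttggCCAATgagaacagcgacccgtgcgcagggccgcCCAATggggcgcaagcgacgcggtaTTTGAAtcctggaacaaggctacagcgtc
CCNB1: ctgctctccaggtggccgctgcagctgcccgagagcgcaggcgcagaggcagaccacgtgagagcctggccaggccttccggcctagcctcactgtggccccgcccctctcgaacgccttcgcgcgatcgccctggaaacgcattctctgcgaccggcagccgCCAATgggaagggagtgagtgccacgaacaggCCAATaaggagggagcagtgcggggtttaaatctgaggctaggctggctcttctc
The TOP2A stretch lies at chr17:40417897-40418146 (minus strand), that of CCNB2 at chr15:59104896-59105145 (plus strand) and that of CCNB1 at chr5:69166900-69167149 (plus strand), on RefSeq GRCh38.p14. TOP2A and CCNB2 each held 4 matches to CCAAT and CCNB1 held 2, while TTTGAA was found 2 times in TOP2A, 1 time in CCNB2 and 0 times in CCNB1.

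The largest falls were in NPY and TTR, neither of them a gene of the cardiac lists. NPY, a neuropeptide, went from 680.1, 481 and 494 TPM to 1.98, 4.62 and 5.53 TPM (-6.69 ± 0.32), and TTR, the transthyretin of liver and yolk sac, from 1265, 747 and 618 TPM to 6.15, 14.9 and 14.3 TPM (-5.94 ± 0.25). LINC02038 (-5.41), LINC00261 (-5.28), CRHBP (-4.80), the homeobox factor HHEX (-4.77) and the stem cell factor receptor KIT (-4.57) fell strongly too. Indian hedgehog (IHH) stood at 30.8, 23.1 and 22.1 TPM on day 8 and had 0 reads in all day 16 wells, at least 96.8-fold lower with 3 reads a library as the floor. LOC107985958, also at 0 reads on day 16, was at least 44.7-fold lower. RIPPLY3 had 3 reads in all on day 16, a 308-fold lower share of reads (95% interval 105 to 1496), and GSTA2 had 1 (499.8-fold, 89.3 to 19780). These intervals and floors cover counting error only.

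Endoderm genes, which mark gut and liver precursors, had 9 of 13 tested members lower and 2 higher (median -2.19). The pioneer factor FOXA1 went from 143, 106 and 88.2 TPM to 2.86, 8.83 and 3.73 TPM (-4.15 ± 0.24), and the apolipoproteins APOA2 (-3.76) and APOB (-3.53) fell as well. The rising members, named after their values were seen, were alpha-fetoprotein (AFP) and SPINK1 (1.97, under 10 TPM on both days). AFP stood at 84.1, 42.3 and 35.3 TPM on day 8, 323 TPM in the day 10 well, 589 and 535 TPM on day 13 and 53.4, 392 and 236 TPM on day 16, so that days 8 and 16 overlapped (1.96 ± 0.36; not called with these wells alone in the fit, and 2.72 without day 16 well 1). FGB, of fibrinogen, was at 139, 54.9 and 49.7 TPM and at 10.8, 72 and 38 TPM, with overlap (-0.99, not called). FGB lay just under the fold threshold: it was called lower without scaling (-1.19), with a pseudocount of 0.1 (-1.01), with the replicate block (-1.04) and without day 8 well 2 or 4 or day 16 well 2 or 3, and ranged from -1.55 without day 16 well 2 to -0.32 without day 16 well 1. Over the list the summed TPM was between 1496 and 2633 on day 8 and between 149 and 679 on day 16. Day 16 well 1 was the lowest in FOXA1, AFP and FGB, and without it 9 members were lower and 2 higher.

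Endothelial and endocardial genes had 12 of 19 tested members lower (median -1.33) and 0 higher by limma, edgeR or DESeq2, with 1 higher at an unadjusted p under 0.05. The VEGF receptor KDR went from 123, 107 and 98.5 TPM to 28.4, 29.1 and 28.8 TPM (-1.68 ± 0.12), and CD34 (-2.47), EMCN (-1.99) and PLVAP (-1.95), surface proteins of vessel cells, fell more. The summed TPM of the list was between 279 and 358 on day 8 and between 93.7 and 113 on day 16.

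Pluripotency genes had 9 of 10 tested members lower (median -1.54) and 0 higher by limma, edgeR or DESeq2 or at an unadjusted p under 0.05. Of the 14 listed, 4 were under 1 TPM in all 6 wells and were not tested. Among these was the core factor POU5F1, at 0.18, 0 and 0 TPM on day 8 and 0 TPM in every day 16 well. LIN28A, an RNA-binding protein that blocks let-7, went from 456, 391 and 318 TPM to 13, 18.5 and 15.6 TPM (-4.35 ± 0.10). SOX2 (-2.66), DPPA4 (-2.25) and ZFP42 (-1.87), each under 15 TPM on day 8, fell as well. Of neural and blood genes 4 of 14 and 2 of 14 passed the filter; DCX (-2.46) and TAL1 (-1.39) fell and CSF1R (1.05) rose, each under 7 TPM, the CSF1R call being lost without scaling, with the wells of the contrast alone, and without day 8 well 2 or day 16 well 3.

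Matrix and stromal genes moved in both directions. Of 26 tested matrix genes 4 rose and 3 fell (median 0.12; 2 rose without scaling, at a median of -0.09). Fibronectin (FN1) fell from 6137, 5221 and 3688 TPM to 563, 984 and 762 TPM (-2.50 ± 0.14), and HAPLN1, which links hyaluronan to proteoglycan, from 121 ± 13.7 to 18.4 ± 0.628 TPM (-2.45). The laminin chain LAMA2, of the muscle basement membrane, rose from 7.54, 9.28 and 9.15 TPM to 59.1, 68 and 64.7 TPM (2.96 ± 0.19), and periostin (POSTN) from 2.27 ± 0.408 to 19.3 ± 0.471 TPM (2.87). The fibrillar collagen COL1A1 was at 223 ± 27.1 and 252 ± 29.6 TPM (0.38, not called). Of 9 tested fibroblast genes POSTN, LUM (2.11) and COL3A1 (1.20, not called without scaling or with a pseudocount of 0.1) rose and FBLN1 (-1.46) fell. The summed TPM of that list was between 604 and 725 on day 8 and between 595 and 716 on day 16.

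Smooth muscle genes had 1 of 10 tested members higher, ACTG2 (2.46, at most 57 reads a well), and 1 lower. The latter was ACTA2, an actin of smooth muscle that early cardiomyocytes also make, which went from 791, 915 and 714 TPM on day 8 to 147 TPM in the day 10 well and 76, 77.3 and 69.7 TPM on day 16 (-3.21 ± 0.21). Of 7 tested epicardial genes TBX18 (1.68), UPK1B (1.44) and BNC1 (1.17, not called without scaling) rose and SEMA3D (-1.94) fell. In the list of amnion and surface epithelium 5 of 13 tested members fell, among them CDH1 (-1.63), GATA3 (-1.51) and ISL1. The last is the gene named above as a factor of heart progenitors. TFAP2A rose from 1.31 ± 0.714 to 8.12 ± 0.918 TPM (2.24). From day 8 to day 13, 6 members of this list were called higher, and from day 13 to day 16, 6 were called lower. The part that cells of these types had in the other changes was not tested.

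Day 13 divides the interval. From day 8 to day 13, 1824 genes were called (10.1%; 1009 or 5.61% higher and 815 or 4.53% lower), and from day 13 to day 16, 413 were (2.29%; 134 or 0.744% higher and 279 or 1.55% lower). With mitochondrial RNA, RN7SK and RN7SL taken out of the sum, 1645 were higher and 761 lower in the first stretch, and with no scaling factor 73 were higher and 341 lower in the second. Day 13 has 2 wells, and both contrasts use them. MYH7 changed by 2.22 ± 0.33 in the first stretch and by 1.21 ± 0.33 in the second, and both passed. PLN changed by 1.68 ± 0.29 and 0.77 ± 0.29, of which the first passed. ACTA2 moved by -3.12 ± 0.23 and then -0.09 ± 0.23, whereas LIN28A passed in both stretches (-2.51 and -1.84), as did TTR (-3.14 and -2.80). MYL2 was at 0.51 ± 0.37 in the first stretch, not called, and at 2.50 ± 0.37 in the second; the difference between the stretches was not tested. AFP rose by 3.52 ± 0.40 to day 13 and then changed by -1.57 ± 0.40, and BNC1 by 2.38 ± 0.16 and -1.21 ± 0.16, all called by limma.

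The same interval in the low purity differentiation shows which changes differed between the courses. The change differed for 1943 genes (10.8%), more positive in high purity for 915 (5.08%) and more negative for 1028 (5.71%). In low purity itself 1266 genes were called (7.03%), 679 higher (3.77%) and 587 lower (3.26%). With mitochondrial RNA, RN7SK and RN7SL taken out of the sum, 1747 were more positive and 861 more negative. MYH6 stood at 829, 1440, 1273 and 848 TPM in the low purity day 8 wells and at 307, 416 and 352 TPM on day 16, a log2 change of -1.35 that differed from high purity by 1.84 ± 0.39 (limma adjusted p = 2.22e-04). RYR2 changed by 0.02 ± 0.14 in low purity, a difference of 1.21 ± 0.21. MYH7 rose in both courses, by 3.43 ± 0.30 and 3.51 ± 0.28, and the difference of -0.08 ± 0.41 was not called. TNNI3, not called in high purity, rose by 2.03 ± 0.26 in low purity, from between 22.6 and 58.7 TPM to between 113 and 148 TPM (difference -1.77 ± 0.38). MYL7 (-1.36 ± 0.34) and GJA1 (-1.21 ± 0.18) also differed, with low purity changes of 1.14 and 0.88.

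Among genes at 20 TPM or more in some group, the 5 most negative differences were in NPY, DLK1, TTR (-4.73), CRHBP (-4.72) and the WNT antagonist DKK1 (-4.59). NPY differed by -8.19 ± 0.44: in low purity it was between 27 and 50.3 TPM on day 8 and between 72.1 and 112 TPM on day 16. DLK1, a Notch-related protein of embryonic tissues, went from 249.5 ± 46.2 to 12.2 ± 5.84 TPM in high purity, and in low purity from between 34.9 and 52.9 TPM to between 251 and 272 TPM (difference -6.88 ± 0.32). Of the 5 most positive, MOXD1, an enzyme of the secretory path, went from 6.92 ± 0.267 to 44.9 ± 9.62 TPM in high purity and changed by -0.84 ± 0.18 in low purity (difference 3.57 ± 0.26). The other 4, TRL-TAG1-1 (5.35), MIR5692B (4.21), SNORD50B (4.20) and MIR4296 (3.48), held at most 14 reads in any of these wells. FN1 (difference -2.73), ACTA2 (-3.22), CKB (-2.16) and KDR (-1.58) fell in high purity and were not called in low purity.

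**Figure D5:**
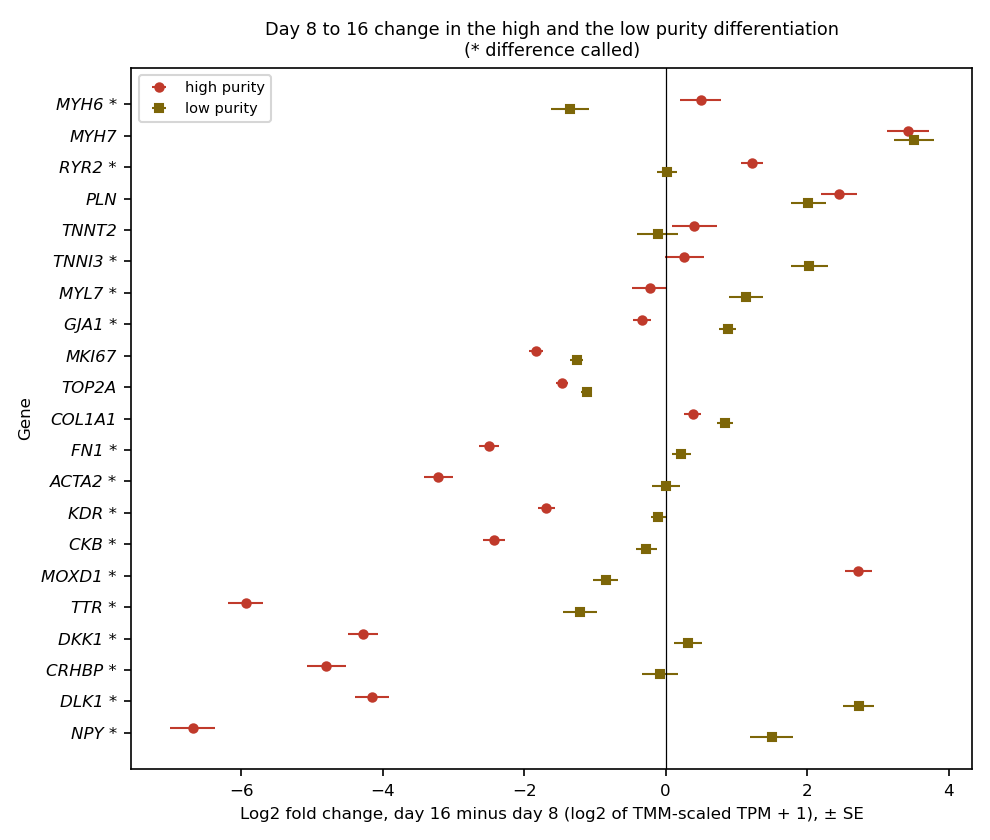
Log2 fold change from day 8 to day 16 (x axis) of named genes (y axis) in the high purity (circles) and low purity (squares) differentiation, with bars of 1 SE; an asterisk marks a called difference. The 2 points of MYH7 overlap (3.43 and 3.51), those of MYH6 and RYR2 lie further right in high purity, and those of TTR, DKK1, CRHBP, DLK1 and NPY further left.

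By list, the difference was called negative for 10 of 13 endoderm genes (7 with edgeR) and 9 of 19 endothelial genes. Of 27 calcium handling genes 6 had a positive and 1 a negative difference. Of 72 nuclear respiratory chain genes 0 had a called difference by limma, edgeR or DESeq2 (median difference -0.42, against 0.008 over all genes). At an unadjusted limma p under 0.05, 40 of them were negative and 0 positive, as were 9 and 0 of 24 TCA cycle genes. Of 28 G2 and mitosis genes 0 had a called difference by limma and 1 by edgeR or DESeq2, with 3 positive and 10 negative at an unadjusted p under 0.05, and the list's medians were -1.26 in high and -1.03 in low purity. On day 8 the summed endoderm TPM was between 1496 and 2633 in the high purity wells and between 432 and 727 in the low purity wells, and the summed fibroblast TPM between 604 and 725 and between 4983 and 6000. The courses stood at different levels of both lists before the interval began, and the part of this in the differences was not tested.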

How the data were processed

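The 56 libraries of this experiment were strand-specific Illumina TruSeq mRNA libraries of poly(A) RNA, per the labels' protocols; the other 24 of the 80 in the series were total RNA libraries and were not used here. Per the submitters' processing notes STAR 2.5.3a, featureCounts 2.0.3 and the build hg38 were used, with no role or order given. The authors deposited a table of TPM per gene and a second table of counts per gene. In the count table of this experiment 0 of 56 columns held the reads of the library they are named for, judged against the TPM, so TPM was used. Whole reads were recovered from TPM steps for 37942 of 43388 genes (100% of nonzero values whole within 0.05 reads) using the deposited counts, and served only as an alternative. Columns without a sample numbered 0.

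TPM were scaled by TMM (edgeR 4.0.16), and log2(TPM + 1) of 17999 genes at 1 TPM or more in at least 3 of the 6 wells was fitted with limma 3.58.1 (R 4.3.3) over all 56 libraries of the experiment, with 16 group means, 40 residual degrees of freedom and a mean-variance trend. Called means a Benjamini-Hochberg adjusted p under 0.05 and a log2 fold change of at least 1 in size. The difference between courses is the interaction of day and purity. Ratios were tested with exact permutation (scipy 1.17.1). The pipeline was tested on simulated data. Mean TPM over wells are given with their SD.

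The wells and the gene lists were chosen with earlier results of these data known. Named genes were the 12 largest rises and 12 largest falls at 20 TPM or more, a set list of key genes, up to 4 called members of each list, uncalled members at 20 TPM or more, and the 5 most positive and 5 most negative differences; AFP, FGB, APOA1, SPINK1, IRX4, TBX5, KCNIP2, NPPB, CCND2, CCNB1 and CCNB2 were named after their values were seen, and some genes that met the rule are not reported here. Alternatives were other scalings, filters and pseudocounts, edgeR and DESeq2 1.42.0 on recovered reads, a replicate block, the wells of a contrast alone, and leaving out each well. Promoters were the first entry per symbol in RefSeq GRCh38.p14.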

Additional observations from a re-analysis of the deposited data

Results flagged for a closer look

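Changes from day 8 to day 16 were compared between the high purity and the low purity differentiation by a limma interaction test. With adjusted p under 0.05 and a log2 difference of at least 1 in size, 65 of 146 genes named in the text differed. Over all 17999 genes tested 1943 (10.8%) did. Many named genes were picked by the size of their change or difference in these wells. The count of 65 therefore does not show how often changes differ. Purity, passage and differentiation cannot be told apart in any of the 65 genes. The values are log2 fold changes in high purity minus those in low purity. The 27 more positive in high purity were TRL-TAG1-1 (5.35), MIR5692B (4.21), SNORD50B (4.20), MOXD1 (3.57), MIR4296 (3.48), AQP1 (2.17), SPHKAP (1.99), LINC00881 (1.94), MLIP-AS1 (1.94), MYH6 (1.84), TBX18 (1.76), TTN (1.67), TFAP2A (1.67), LUM (1.53), GPRIN3 (1.49), CACNA1C (1.34), POSTN (1.33), MYH7B (1.30), MYH3 (1.29), PRSS35 (1.26), RYR2 (1.21), LRRC10 (1.20), RXRG (1.18), LAMA2 (1.17), SLC2A4 (1.16), SLC2A1 (1.10) and NPPB (1.05). The 38 more negative were NPY (-8.19), DLK1 (-6.88), TTR (-4.73), CRHBP (-4.72), DKK1 (-4.59), APOA2 (-3.93), RIPPLY3 (-3.66), LOC107985958 (-3.42), DIO3 (-3.34), ACTA2 (-3.22), KIT (-3.06), GSTA2 (-3.05), IHH (-2.96), APOB (-2.76), FN1 (-2.73), CDH1 (-2.50), LINC02038 (-2.43), LINC00261 (-2.35), HHEX (-2.29), CD34 (-2.27), FOXA1 (-2.17), CKB (-2.16), PLVAP (-2.06), SEMA3D (-1.98), EMCN (-1.97), SOX2 (-1.81), TNNI3 (-1.77), SYNPO2 (-1.70), TAL1 (-1.65), MYBL2 (-1.62), KDR (-1.58), APOA1 (-1.45), TBX3 (-1.42), MYL7 (-1.36), DCX (-1.29), FBLN1 (-1.25), GJA1 (-1.21) and RRM2 (-1.01). IHH, LOC107985958, RIPPLY3 and GSTA2 had at most 3 reads over the day 16 high purity wells, so that their fitted differences depend on the value added before the log. TRL-TAG1-1, MIR5692B, SNORD50B and MIR4296 held at most 14 reads in any of these wells, and the day 16 to day 8 ratio of read shares in high purity was 2.23 for MIR5692B (95% counting interval 0.475 to 13.8) and 15.6 for TRL-TAG1-1 (2.37 to 658). A search for a well far from the other 3 covered the low purity day 8 wells of 31 genes, the key genes and those with the largest differences. It found a well apart for COL1A1 (1611, 1611, 1608 and 1854 TPM; the gap is 0.988 of the range), MKI67 (92.8, 79.7, 80.4 and 81.1 TPM; 0.893) and MYL2 (0, 3.02, 0 and 0 TPM; a gap of 1, the whole range). Chance gives such a gap in about 1 of 20 groups, so over 31 groups some are expected by chance. That rate does not hold for MYL2, whose gap is set at 1 by the 3 wells at 0.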

How the results depend on the processing

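The number of genes called from day 8 to day 16 (2698) was 1632 with a filter of 5 TPM and 9744 by adjusted p alone, and between 2468 and 2973 with 1 well left out. For the difference between courses (1943) these were 1139, 6366 and 1797 to 2161, and for day 8 to day 13 (1824) they were 1053, 7650 and 1667 to 1947. From day 13 to day 16 (413) the count was 228 with only those wells in the fit, 3443 by adjusted p alone and 308 to 481 with 1 well left out. The other settings left these 4 counts within 1.5 times. Wells of the same number did not pair the days (correlation of deviations -0.03 for wells 1 and -0.01 for wells 2), and with the replicate block the counts were 2690, 1938, 1785 and 420. Of 114 named genes called, 12 lost their call with no scaling factor, 4 with a pseudocount of 0.1, 4 with the wells of the contrast alone, 4 with DESeq2, 1 with edgeR and 10 when some well was left out, and 0 reversed. Signs turned only for values that were not called, for medians of lists and for 2 of the ratios, and the cause was not tested. With mitochondrial RNA, RN7SK and RN7SL out of the sum the values were MYH7 (difference) 0.13, TNNI1 (difference) 0.13, NKX2-5 (difference) 0.12, median of epicardial 0.51 and median of blood 1.01. With edgeR on recovered reads the values were MYL2 (difference) 0.066. With DESeq2 the values were MYL2 (difference) 0.21. With no scaling factor the values were NKX2-5 -0.17, DSP -0.14, PKP2 -0.014, CS -0.0799, CNN1 -0.071, median of thin filament -0.034, median of intercalated disc -0.18, median of cardiac transcription factors -0.17, median of cell cycle inhibitors -0.066, median of extracellular matrix -0.087 and median of fibroblast stromal -0.10. With the replicate block the values were NKX2-5 -0.063 and median of cardiac transcription factors -0.063. With no filter the values were median of intercalated disc -0.0032, median of cardiac transcription factors -0.0044, median of fibroblast stromal -0.026, median of epicardial 0.46, median of amnion surface epithelium 0.17, median of neural 0.029 and median of blood 0.20. With each well left out in turn the ranges that crossed 0 were MYH7 (difference) -0.43 to 0.17, TNNI1 (difference) -0.22 to 0.0516, NKX2-5 -0.093 to 0.11, NKX2-5 (difference) -0.40 to 0.10, MB (difference) -0.77 to 0.09, COX5B -0.23 to 0.0176, APOA1 -0.87 to 0.21, median of intercalated disc -0.0186 to 0.0199 and median of cardiac transcription factors -0.093 to 0.11. Within a well, the log2 ratio of TNNI3 to TNNI1 changed by -0.0202, and by 0.0735 without day 16 well 2 and 0.000839 without day 16 well 3 (-0.13 to 0.0735 over wells left out), and that of KCNJ2 to HCN4 by 0.97, and by -0.11 with 1 TPM added to both genes. Depth limits genes under a few reads: 116 of the calls rest on at most 10 reads in every well.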

Other observations

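Families outside the lists were looked at after their values had been seen. Of all genes tested 7.86% rose and 7.13% fell, the shares to set beside the counts below. The libraries were of poly(A) RNA, and how fully they capture histone and small nucleolar RNAs was not tested. Of 63 tested histone genes of the HIST clusters 41 fell and 0 rose by limma (median log2 fold change -1.55, and -1.13 in low purity). Their summed TPM was between 8209 and 10940 on day 8 and between 2687 and 2831 on day 16.

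Small nucleolar RNAs of 2 imprinted clusters were also measured. Of SNORD116 genes 8 of 27 rose (median 0.87), and of SNORD115 genes 6 of 8 (median 3.21, on 0 to 15 reads a well on day 8 and 27 to 51 on day 16, summed over the genes). Of SNORD113 and SNORD114 genes 8 of 30 fell (median -1.44, and 0.37 in low purity). Copies within each family are near-identical, and their reads may be split among them. Ribosomal protein genes had 1 higher and 1 lower of 76 tested (median -0.09, and -0.30 without scaling).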
